A study of Mus musculus with 4 samples.

Results

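The tumour suppressor p53, encoded by Trp53, and 9 genes that it is known to activate directly (Mdm2, Cdkn1a, Ccng1, Bax, Bbc3, Phlda3, Zmat3, Sesn2 and Trp53inp1) were examined in mouse embryonic stem (ES) cells. The 10 genes were chosen by symbol, and all 10 were found among the 22718 genes of the RNA-seq files. The data are 1 RNA-seq library of wild type ES cells and 1 of ES cells labelled Prep1-/- (both given as strain C57BL/6), with 29596294 and 25717811 reads in genes, and a list of 3902 peaks from 1 ChIP-seq library of Prep1 and 1 input library of wild type ES cells. Prep1, the product of Pknox1, is a TALE-class homeodomain transcription factor. Both cell lines were grown with serum and LIF, and each genotype was 1 line. The mutant line is called KO2 in the study's methods. For the ChIP-seq samples the labels give the strain C57BL/6 while the protocol names R1 ES cells, another line. The summed reads exceed the depth per sample that the study's methods state, for a reason not given in the sources used here, and the counting intervals take the read counts as deposited. There were no replicates, so a difference between the RNA libraries is a difference between these libraries, with no replicate check and no test.

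p53 is a transcription factor that is kept low in unstressed cells because Mdm2, the ubiquitin ligase that it induces, marks it for degradation. DNA damage and other stresses stabilise the protein, which then binds pairs of a palindromic half-site and activates genes for cell cycle arrest, cell death, metabolic control and its own restraint. Its activity is set mainly at the level of the protein, so the mRNA of Trp53 is not a measure of it. Mouse ES cells are known for high Trp53 mRNA and for a weak arrest in the first phase of the cell cycle. Mouse embryos without Prep1 are known to lose the epiblast through p53-dependent cell death, which is why these genes were compared. The comparison was made in ES cells and not in the epiblast, and neither cell death nor the p53 protein was measured in these libraries.

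The sequences that p53 is known to recognise were looked for around the 10 gene starts on mm9 (NCBIM37), the genome build of the files. A match to the p53 site was 2 copies of the published consensus half-site of 10 bases with 0 to 13 bases between them, both cores whole and at most 2 mismatches in all, within 3000 bases on either side of the annotated start, where 0 is the first base of the gene. By this rule 6 of the 10 genes held a match, but so did 45.5% of the 21446 genes that could be placed on the annotation. A match without a mismatch was found at 1.82% of genes and at 3 of the 10, Cdkn1a, Zmat3 and Trp53inp1. A match without mismatch or spacer was found at 0.107% of genes and among the 10 genes at Zmat3 alone. No match was found in this window for Trp53, Mdm2, Phlda3 or Sesn2, which says only that these letters are not there. The window of 3000 bases was set after the shorter promoter windows had been searched.

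For each of the 6 genes 1 match is shown on the strand of the gene, with the half-sites in capitals and the spacer in lower case, so that the letters behind these counts can be compared. It is the match with the fewest mismatches, except for Cdkn1a, for which the unspaced match is shown. The Cdkn1a match lies at chr17:29227873-29227892, plus strand, bases -51 to -32, and has 1 mismatch. These bases are counted from the first base of the annotated gene, and distances to the starts of its separate transcripts were not measured. The Zmat3 match lies in an intron at chr3:32263253-32263272, minus strand, bases 1328 to 1347, and the Trp53inp1 match lies upstream of the gene at chr4:11082259-11082279, plus strand, bases -1319 to -1299. The Ccng1 match lies in an intron at chr11:40568438-40568457, minus strand, bases 356 to 375, with 1 mismatch. The Bax match lies in an intron at chr7:52720907-52720932, minus strand, bases 1336 to 1361, also with 1 mismatch, and the Bbc3 match lies upstream at chr7:16893502-16893531, plus strand, bases -1463 to -1434, with 2.
Cdkn1a: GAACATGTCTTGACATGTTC
Zmat3: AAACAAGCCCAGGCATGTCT
Trp53inp1: AAACATGTCCaGGACTAGCCT
Ccng1: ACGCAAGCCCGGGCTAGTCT
Bax: AAACATGCTTttgctcAGTCAAGCCC
Bbc3: AAACAAGCTGgacagtggtgGTGCATGCCT
The first half-site of the Cdkn1a match also formed a match without a mismatch together with a half-site 12 bases upstream, so that 3 half-sites stood within bases -73 to -32. This cluster is shown in the 100 bases before the annotated start, chr17:29227824-29227923, with the 20 bases of the match printed above in capitals.
Cdkn1a upstream: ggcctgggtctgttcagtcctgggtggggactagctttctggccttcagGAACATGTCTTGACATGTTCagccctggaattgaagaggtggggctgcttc
In windows from 250 bases before to 50 after the start, a match without mismatch was found for 0.042% of genes, 9 in all. Cdkn1a was among them, by the first base of its gene and not by the start of a given transcript. Zmat3 held 5 overlapping matches in the same stretch of its intron and Bax 4 matches.

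Prep1 bound near 4 of the 10 genes. A peak lay in the gene or within 20 kb of its start for Mdm2, Ccng1, Bax and Sesn2, compared with 4502 of the 21446 placed genes and with 26.5% of the 12707 placed genes whose expression was above 1 RPKM (reads scaled to gene length and library size) in both libraries. The height of a peak is the fold enrichment of ChIP over input that the authors' peak caller gave, rounded to a whole number, and over the list it ran from 4 to 336 with a median of 21. The highest of the peaks near these genes covered the start of Ccng1, chr11:40568335-40569191, from bases -378 to 478, with a fold enrichment of 45. The p53 site match in the Ccng1 intron lay inside this peak. Sesn2 had 2 peaks, one across its start at chr4:132066256-132066952 with a fold of 13 and one in an intron at chr4:132065264-132065864 with a fold of 15. The Bax peak, chr7:52721480-52722139, lay inside the gene, 129 to 788 bases after the start, with a fold of 10. The Mdm2 peak, chr10:117152113-117152557, was intergenic, from bases -4743 to -4299, with a fold of 17. Ccng1 was thus the only one of the 4 with a peak at or above the median height of the list. By the same rule 12.5% of the placed genes and 16.2% of those expressed had such a peak. For Trp53 the nearest peak was 42.4 kb away, and for the other 5 genes it was between 57.0 kb (Phlda3) and 178 kb (Cdkn1a) away. The peaks were called in cells with Prep1 only and from 1 ChIP library.

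Prep1 is known to bind a decamer, searched here on both strands as TGA, TG and CAG in this order, with any 1 base between neighbours. It was present in 35.3% of the 3902 peaks and, within 5 peaks near these genes, only in that of Mdm2. The study reported its decamer in a larger share of these peaks with motif search programs, a measure unlike the exact letters used here. With 1 mismatch allowed, a search added after the exact one, 82.6% of the peaks and all 5 of these held it. In promoter windows of 250 bases before to 50 after the start the exact decamer was found for 2.09% of genes and for none of the 10, and the decamer with at most 1 mismatch for 25.9% of genes and 3 of the 10. For the Mdm2 and Ccng1 peaks and the Sesn2 peak across the start, 1 decamer match each is shown. With at most 1 mismatch the Mdm2 peak held 4 matches, this Sesn2 peak 2 and the Ccng1 peak 1. Each is printed with 10 or 20 bases on either side, in the orientation of the gene, with the decamer in capitals. The decamer is shown because it is the sequence that Prep1 is known to bind. The exact Mdm2 decamer lies at chr10:117152279-117152288, minus strand, bases -4474 to -4465. The Sesn2 decamer lies at chr4:132066457-132066466, minus strand, bases -50 to -41, with 1 mismatch. The Ccng1 decamer lies at chr11:40568823-40568832, minus strand, bases -19 to -10, also with 1 mismatch, and its flank reaches into the first exon.
Mdm2: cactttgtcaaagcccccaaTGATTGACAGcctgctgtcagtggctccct
Sesn2: aacaggcatcTGATTGGCTGcgccgtggga
Ccng1: aagtgtgcgcTGATTGGCCGagcttcctca
A second decamer with 1 mismatch in the Mdm2 peak, TGATTGGCTG, had the same 10 letters as that of Sesn2. Matches with 1 mismatch also lay in the Bax peak and in the intronic Sesn2 peak. A match is a description of letters and does not show that Prep1 or p53 was bound to them.

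**Figure D1:**
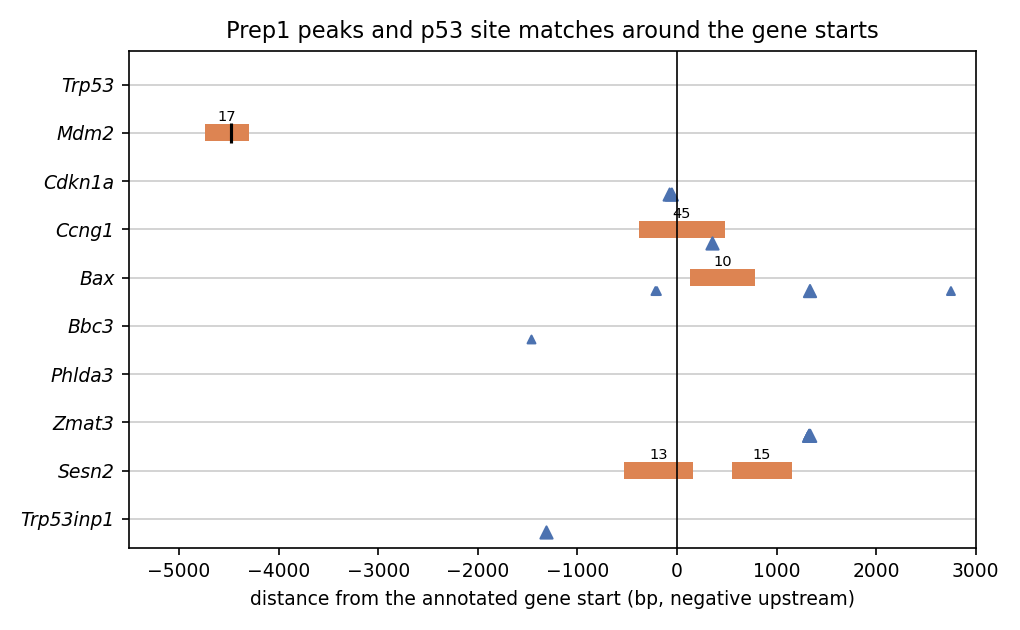
Prep1 peaks (bars, with their fold enrichment over input) and p53 site matches (triangles, large for 0 or 1 mismatch and small for 2) by distance in bp from the annotated start of each gene, with a black tick for the exact Prep1 decamer. The 5 peaks belong to Mdm2, Ccng1, Bax and Sesn2, the tick lies in the Mdm2 peak, and p53 site matches were searched only within 3000 bp of each start.

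Expression was compared by RPKM, as KO/WT, and 8 of the 9 targets were lower in the library labelled Prep1-/- while Trp53 itself was higher. The targets had a median KO/WT of 0.768, from 0.628 for Phlda3 to 1.03 for Zmat3, and Trp53 had 1.12. Phlda3 alone passed a fold threshold. A gene was called lower when its wild type RPKM was above 1 and KO/WT below 0.7, and higher when its KO RPKM was above 1 and KO/WT above 1.5. The ratio limits are those of the study, while the RPKM limit on the higher library was set here. This is 1 of 10 genes called lower and 0 called higher, where 13.3% of the 14254 genes that exceeded 1 RPKM in at least 1 library were called lower and 6.91% higher. The count is thus near the background and is no result about these genes. Of the 1899 genes called lower in the background, 243 had at least 1000 reads in each library, whereas each of the 10 had at least 1003 reads in each library. Among the 5346 genes with at least 1000 reads in each library, a set chosen after values were seen, 4.55% were called lower and 1.53% higher.

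Counting error was small beside most of the ratios. Each ratio is given with the exact (Clopper-Pearson) 95% interval of the KO share of reads, which covers counting error only and not the spread between cultures or lines. KO/WT was below 1 for 8 of the 10 genes, as it was for 58.8% of the 13218 genes above 1 RPKM in both libraries and 57.8% of the 5346 genes with at least 1000 reads in each. The interval lay wholly below 1 for the same 8 genes, compared with 43.7% of the 5346 and 36.8% of the 13218. The median log2 KO/WT of the 10 genes was -0.32, and that of the 13218 genes was -0.07. With bulk RNA, fewer cells that express a gene and less of its RNA per cell cannot be told apart.

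Trp53 itself (ENSMUSG00000059552, chr11:69393861-69405375, plus strand) had 18475 reads in wild type cells and 18456 in those labelled Prep1-/-. Since that library was smaller, its RPKM was 340 in wild type and 380 in the other, with a KO/WT of 1.12 (95% interval 1.09 to 1.14). It was the most abundant of the 10 in both libraries and ranked 174 among all genes in wild type and 135 in the mutant. The ratio lay at percentile 81.4 of the 5346 genes with at least 1000 reads in each library, well inside the range of most genes. Wdr79, which lies beside Trp53 on the genome, had a similar KO/WT of 1.13 (1140 and 1151 reads), and the median KO/WT of expressed genes on chromosome 11 was 1.03. Wdr79 was chosen after its values were seen.

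Mdm2 (ENSMUSG00000020184, chr10:117125944-117147814, minus strand), the ubiquitin ligase that closes the negative feedback loop on p53, had 14963 reads in wild type and 9483 in the library labelled Prep1-/-. Its RPKM was 104 in wild type and 73.5 in the mutant, with a KO/WT of 0.709 (0.691 to 0.727). It was the member just outside the threshold of 0.7, which lies within its interval, and Phlda3 was the member inside it. Ccng1 (ENSMUSG00000020326, chr11:40562054-40568813, minus strand) encodes cyclin G1, another negative feedback factor, which brings a phosphatase to Mdm2. It had 11513 and 7908 reads and an RPKM of 113 in wild type and 86.7 in the mutant, with a KO/WT of 0.768 (0.746 to 0.790). Both feedback genes stood near the lower end of the well-covered genes, at percentiles 5.07 and 9.65 of the 5346. Phlda3, Trp53inp1 and Bbc3, which had no Prep1 peak by the rule above, also stood there, at percentiles 1.61, 7.7 and 8.5. The other 2 genes with a Prep1 peak, Bax and Sesn2, had higher KO/WT ratios of 0.911 and 0.953.

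Phlda3 (ENSMUSG00000041801, chr1:137662696-137665713, plus strand) encodes a PH-domain protein that p53 induces and that keeps the kinase Akt from the membrane. It had 3344 reads in wild type and 1878 in the library labelled Prep1-/-, an RPKM of 81.4 and 51.1, and a KO/WT of 0.628 (0.593 to 0.665). This was the lowest ratio of the 10 and percentile 1.61 of the 5346 well-covered genes. The median KO/WT of expressed genes on its chromosome was 1.04. Among the chromosomes of the other members it was 0.923 for 7 (Bax, Bbc3) and 10 (Mdm2) and 0.933 for 17 (Cdkn1a). It was 0.940 for 4 (Sesn2, Trp53inp1), 0.95 for 3 (Zmat3) and 1.03 for 11 (Trp53, Ccng1).

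Cdkn1a (ENSMUSG00000023067, chr17:29227924-29237667, plus strand) encodes p21, the cyclin-dependent kinase inhibitor through which p53 arrests the cell cycle. It had 8592 reads in wild type and 6443 in the library labelled Prep1-/-. Its RPKM was 97.3 and 81.6, with a KO/WT of 0.839 (0.812 to 0.866), a smaller difference than for Mdm2, whose interval lay wholly below. By level, Mdm2 stood above Cdkn1a in wild type and below it in the mutant, an order that depends on the gene lengths behind the RPKM.

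Bbc3 (ENSMUSG00000002083, chr7:16894965-16903554, plus strand) encodes Puma, a BH3-only protein that starts mitochondrial cell death. With 1486 reads in wild type and 1003 in the library labelled Prep1-/- it was the least covered of the 10, and its RPKM was 29.1 and 22.0 with a KO/WT of 0.755 (0.696 to 0.818). Bax (ENSMUSG00000003873, chr7:52717065-52722268, minus strand) encodes the pore-forming protein on which Puma acts. Bax had 3449 and 2810 reads and an RPKM of 222 and 202, with a KO/WT of 0.911 (0.866 to 0.958). The 2 death genes lie on the same chromosome, and their intervals did not overlap. Trp53inp1 (ENSMUSG00000028211, chr4:11083578-11101526, plus strand), a stress protein of the nucleus and of autophagy that favours cell death, had 4919 and 3288 reads and an RPKM of 28.9 in wild type and 21.6 in the mutant, with a KO/WT of 0.747 (0.715 to 0.781).

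Sesn2 and Zmat3 were close to equal between the libraries. Sesn2 (ENSMUSG00000028893, chr4:132047947-132066416, minus strand) encodes sestrin 2, which restrains the growth kinase mTORC1 under stress. It had 9956 reads in wild type and 8488 in the library labelled Prep1-/-, an RPKM of 117 and 111, and a KO/WT of 0.953 (0.926 to 0.981), at percentile 45.0 of the well-covered genes. Zmat3 (ENSMUSG00000027663, chr3:32233718-32264600, minus strand) encodes an RNA-binding zinc finger protein. It had 6428 and 5894 reads, an RPKM of 27.1 and 27.8, and a KO/WT of 1.03 with an interval of 0.989 to 1.06 that included 1. Zmat3, with the unspaced perfect p53 site match described above, had the highest ratio of the 9 targets.

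**Figure D2:**
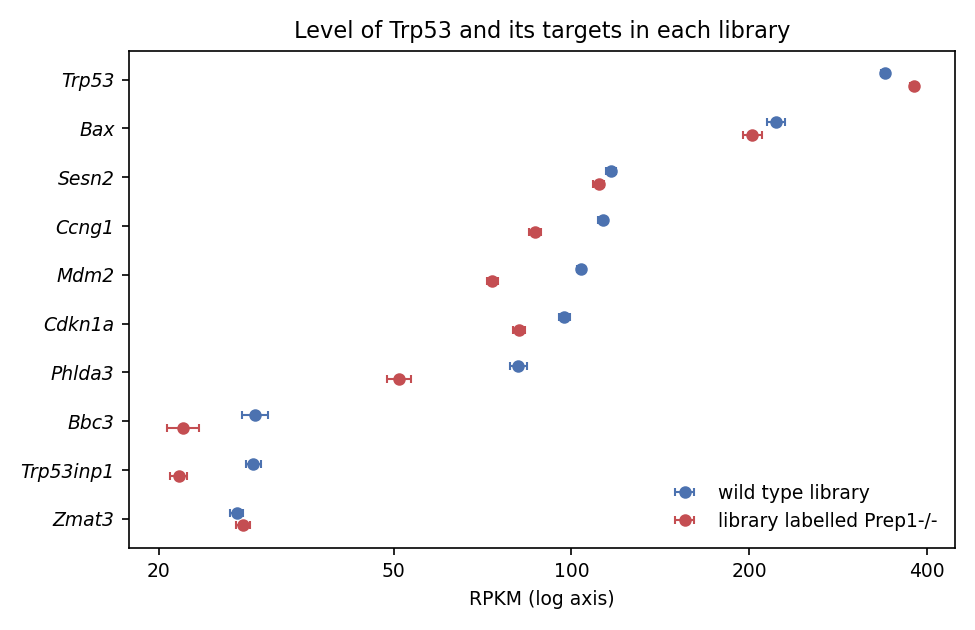
RPKM (log axis) of each gene in wild type and in the mutant, 1 library each, with exact 95% counting intervals as bars. Trp53 and Zmat3 are to the right in the mutant, and the other 8 genes are to the left of wild type.

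The order of the levels was much alike in both libraries. In wild type it ran Trp53, Bax, Sesn2, Ccng1, Mdm2, Cdkn1a, Phlda3, Bbc3, Trp53inp1 and Zmat3 by RPKM, and the counting intervals of Sesn2 and Ccng1 and of Bbc3 and Trp53inp1 overlapped, so that these neighbours did not differ in order beyond counting error. In the mutant, Cdkn1a stood above Mdm2, and Zmat3 above Bbc3 and Trp53inp1, whose intervals again overlapped. Summed over the 9 targets, RPKM was 819 in wild type and 678 in the mutant. Levels between genes depend on the gene length that the authors used. The length behind the RPKM of Bax was 0.598 kb, shorter than its longest annotated transcript of 1.05 kb. That of Mdm2 was 5.55 kb against 3.13 kb, and that of Cdkn1a 3.4 kb against 1.91 kb. The places of these genes in the order are therefore less certain than their ratios, from which the length cancels.

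**Figure D3:**
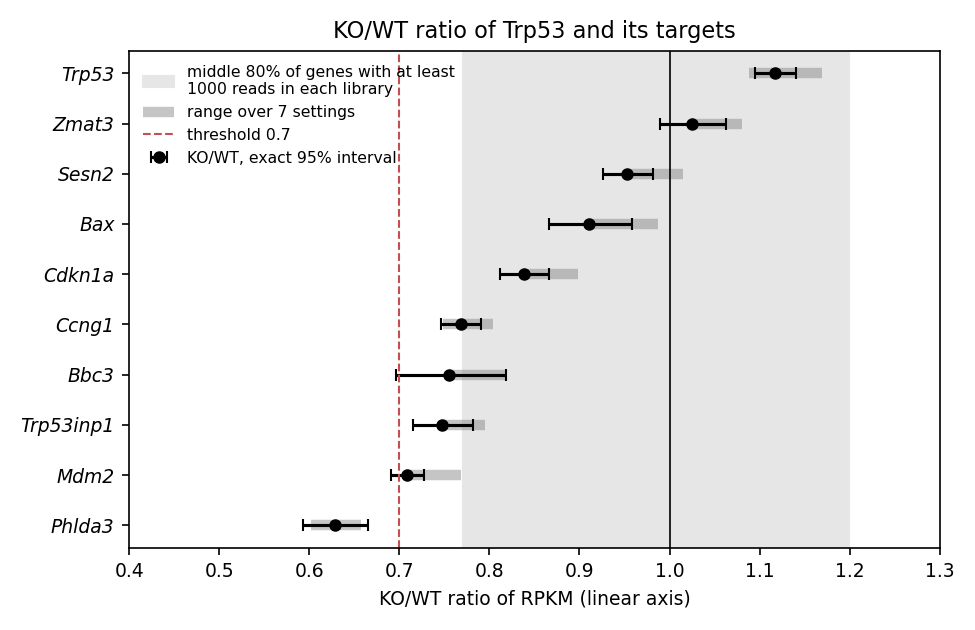
KO/WT ratio of RPKM (linear axis) with exact 95% counting intervals (points and bars), the range of each ratio over 7 settings of library scaling and pseudocount (thick grey lines) and the middle 80% of the genes with at least 1000 reads in each library (0.771 to 1.20, shaded). Phlda3 lies below the threshold of 0.7 (dashed), Mdm2, Trp53inp1, Bbc3 and Ccng1 lie between it and the shaded range, and the other genes lie inside the range.

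Each target was also set against Trp53 within the same library, which does not depend on how the libraries were scaled. All 9 were lower relative to Trp53 in the mutant. The KO/WT of a target divided by that of Trp53 was lowest for Phlda3 at 0.562 (exact conditional 95% interval 0.529 to 0.597) and next for Mdm2 at 0.634 (0.614 to 0.656). It was 0.669 for Trp53inp1, 0.676 for Bbc3, 0.688 for Ccng1 and 0.751 for Cdkn1a. The highest values were 0.816 for Bax, 0.853 for Sesn2 and 0.918 (0.881 to 0.956) for Zmat3. In RPKM per RPKM of Trp53, Mdm2 stood at 0.305 in wild type and at 0.194 in the mutant. Part of each of these values is the KO/WT of Trp53 itself, which all 9 share.

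A wider list of 40 other p53 targets was all found in the files, and 38 of them exceeded 1 RPKM in at least 1 library. Of these, 10 (26.3%, background 13.3%) were called lower, 3 higher (background 6.91%) and 25 neither. KO/WT was below 1 for 31 of the 38, as it was for 58.8% of the genes above 1 RPKM in both libraries. Their median log2 KO/WT was -0.30, next to -0.07 for all expressed genes. The lowest ratio was that of Perp, a desmosomal and cell death protein of the membrane, with 6572 reads in wild type and 3104 in the library labelled Prep1-/-, and a KO/WT of 0.528 (0.506 to 0.551). Sfn, the 14-3-3 sigma protein of cell cycle arrest, had 3091 and 1502 reads and a KO/WT of 0.544 (0.511 to 0.578).

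The other genes called lower covered arrest, growth control, death and metabolism. Rprm, a mediator of arrest, had 0.551 on 133 and 65 reads, Btg2, an antiproliferative factor, 0.610, and Ddit4, an inhibitor of mTORC1, 0.614. Dcxr, a sugar reductase, had a KO/WT of 0.634, the peptide transporter Tap1 had 0.650, and Apaf1, the scaffold of the apoptosome, had 0.687. The polo-like kinases Plk3 and Plk2 had 0.688 and 0.694, so that these and Apaf1 lay just inside the threshold. The genes called higher included Rrm2b, a ribonucleotide reductase subunit, with a KO/WT of 1.95 on 84 and 147 reads, and Ptprv, a receptor phosphatase, with 2.46 on 9 and 21 reads and an interval of 1.15 to 6.47. Both had a wild type RPKM below 1 (0.827 and 0.747) and were counted through the library in which they are high, so these calls depend on the filter, and with an RPKM above 5 only 1 gene of the list was called higher. With the libraries scaled by summed reads, upper quartile, median or chromosome median, the split of 10 lower and 3 higher became 7 lower and 4 higher.

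Among 28 regulators of p53, 26 exceeded 1 RPKM in at least 1 library, of which 1 (3.85%) was called lower and 1 higher. The background shares were 13.3% and 6.91%, and among genes with at least 1000 reads in each library they were 4.55% and 1.53%. These counts are therefore no result about the regulators. Ppp1r13l, which encodes the p53 inhibitor iASPP, had 2341 and 1305 reads and a KO/WT of 0.624 (0.582 to 0.667). Hipk2, a kinase that phosphorylates p53 for cell death, had 3435 and 5669 reads and a KO/WT of 1.85 (1.77 to 1.93). KO/WT was above 1 for 15 of the 26 and below 1 for 11, and the median was 1.06. Of the genes above 1 RPKM in both libraries, 58.8% were below 1. Rpl5 and Rpl11, ribosomal proteins that inhibit Mdm2, were covered by 18 and 23 and by 52 and 34 reads. Both belong to families with many processed pseudogenes, so their values are uncertain, and the RPKM of Rpl5 is listed as Inf in both libraries. Of 20 cell cycle genes that p53 lowers through p21, 0 were called, next to the same background shares, and their ratios ran from 0.874 to 1.35 with a median of 0.985.

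**Figure D4:**
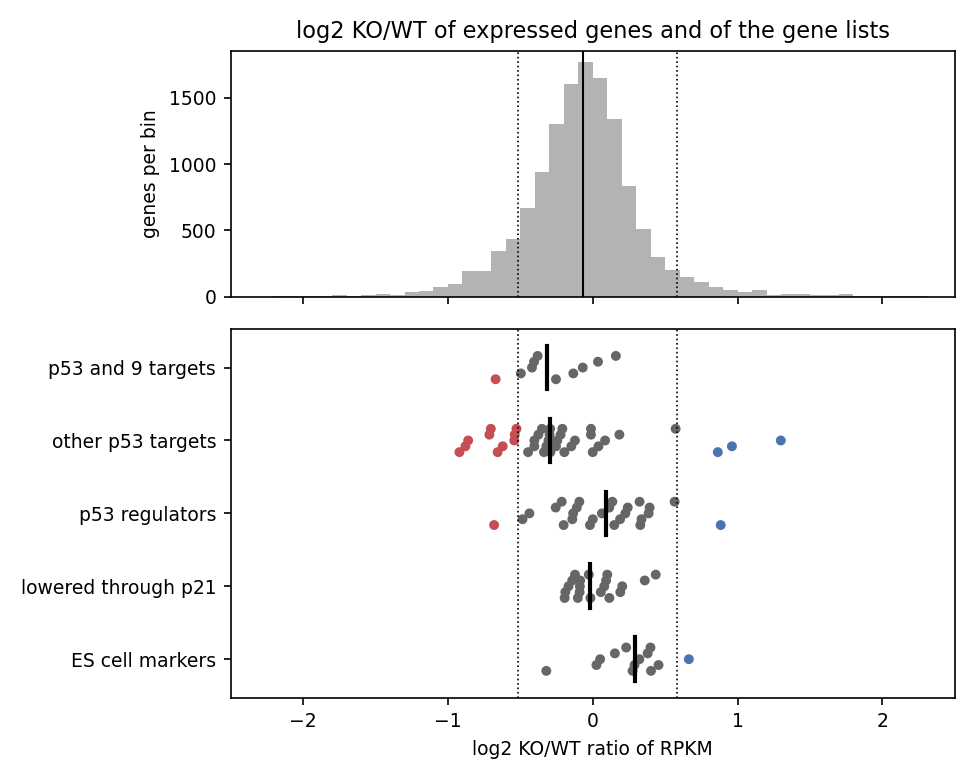
Top: number of genes by log2 KO/WT in bins of 0.1 for the genes above 1 RPKM in both libraries, with their median of -0.07 (line). Bottom: log2 KO/WT of each gene of the lists (red for called lower, blue for called higher, grey for neither). The list median is a bar, and dotted lines mark KO/WT 0.7 and 1.5. The medians of the p53 genes (-0.32) and other targets (-0.30) lie left of those of the regulators and genes lowered through p21. The points of the lists overlap.

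The libraries also differed in other ways. The targeted gene Pknox1 kept 332 reads in the library labelled Prep1-/- next to 505 in wild type, with a KO/WT of 0.736. The label could thus not be checked from the RNA reads of its own gene, while the study reported by immunoblot that its mutant lines, KO2 among them, lacked the Prep1 protein. The chromosome Y genes Ddx3y, Eif2s3y and Uty had 0 reads each in wild type and 310, 293 and 285 in the mutant, so the lines also differed in the reads of that chromosome. The median KO/WT of the 702 expressed genes on chromosome 8 was 0.779, where those of the other autosomes and of X ran from 0.923 to 1.08. The 10 genes lie on other chromosomes. Of 13 ES cell markers, 12 had a KO/WT above 1 and 1 below it, where 58.8% of the genes above 1 RPKM in both libraries were below 1. Of these markers 1, Klf4 (1.58), was called higher (background 6.91%), and their summed RPKM was 2250 in wild type and 2585 in the mutant. Of 5 measured trophectoderm markers 4 were called lower (background 13.3%), with Cdx2 at 0.221 and a summed RPKM over all 6 listed of 789 and 473, mostly the keratins Krt18 (0.595) and Krt8 (0.614). Of 5 measured primitive endoderm markers 3 were called lower (background 13.3%), with Gata4 at 0.339 and a summed RPKM over all 8 listed of 20.2 and 16.6. The other 2 were higher, Sox7 at 1.39 (1.09 to 1.79) and Lama1 at 1.12 (1.05 to 1.20). Of 5 measured primitive streak and neural markers 3 were called lower (background 13.3%), with T at 0.249 and a summed RPKM over all 6 listed of 47.7 and 24.8, and Pax6 (1.83) was called higher. Among 4 measured fibroblast markers 0 were called, with a summed RPKM over all 7 listed of 26.2 and 31.3, and Lum alone of all these markers had 0 reads in a library, the wild type one. The part of these differences in the ratios of the p53 genes was not tested.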

How the data were processed

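mRNA of wild type and Prep1-/- (KO2) ES cells was sequenced by the authors as paired-end reads of 50 bp and assigned with RSEM to the genes of Ensembl release 63 (mm9), followed by DESeq, and versions are not given in the sources used here. The authors deposited a read count per gene, without normalization, and an RPKM per gene, which was proportional to the read count plus 1, with Inf for 85 genes. Peaks were called with MACS on BWA alignments against input, and the score deposited with each peak is the fold enrichment, rounded.

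KO/WT was the ratio of the deposited RPKM without a pseudocount and equals 1.118 times the ratio of reads plus 1. Clopper-Pearson intervals of the KO share of reads were scaled by that factor, for counting error only, since reads are not independent molecules. Genes and peaks were placed on NCBIM37 with the GENCODE M1 annotation, and sequences were read from that genome. Scripts used Python 3.11.15, pandas 2.3.3 and scipy 1.17.1 and were tested on simulated data. Alternatives were other scalings, pseudocounts, filters, thresholds and peak windows. No test was run. The genes, lists and rules were chosen with earlier results of these data known. Genes named were all 10, the targeted gene, markers, and from each list the genes called with at least 20 reads and its lowest and highest ratio. The values of 1 gene of the lists are not reported here.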

Additional observations from a re-analysis of the deposited data

How the results depend on the processing

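No paired analysis was possible because each genotype had 1 library and no test was run; no library could be left out. Over 7 settings of scaling and pseudocount KO/WT ran from 1.09 to 1.17 for Trp53, 0.709 to 0.768 for Mdm2 and 0.602 to 0.657 for Phlda3. Sesn2 alone crossed 1, at 1.02 with each chromosome's median set to 1, an alternative chosen after seeing the data. Under that alternative Bax, at 0.911 in the main setting, had 0.987. Summed read counts moved the median log2 of expressed genes from -0.07 to -0.03. With thresholds of 0.5 and 2, 0 of the 10 genes, 0 of the other targets and 0 of the regulators were called lower, and 1 other target and 0 regulators were called higher. With an RPKM above 5, 1 other target was called higher in place of 3. Under summed counts, upper quartile, median and chromosome median scaling 2 regulators were called higher in place of 1. Under those scalings 7 other targets were called lower and 4 higher, in place of 10 and 3; Apaf1, Plk2 and Plk3 lie just below 0.7. With peaks at or above the median height, 1 of the 10 genes had a Prep1 peak in place of 4, next to 12.5% of the placed genes and 16.2% of those expressed. Of all the counts and medians under the alternatives, 97 stayed the same, 11 moved and 0 reversed. Only a median could be labelled reversed, and counts of 0 that stayed 0 are among those the same. The tally is therefore no measure of robustness. A count was taken as the same within 1.5 times, which includes the 7 and 4 other targets above. A median was taken as the same within an interval from the ordered ratios of its list, which reflects the spread between genes and not counting error. With 1 library a genotype, differences between cultures, lines and genotypes cannot be told apart.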
